A study of Mus musculus with 10 samples.

Results

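The genes described here are those of glycolysis and glycogen metabolism, 36 in all, in the gastrocnemius of smoke-exposed mice. They were taken from a list of gene symbols that runs from glucose uptake to lactate export and through the making and breaking of glycogen. Each symbol matched 1 Ensembl gene of the deposited count table, so the members are 36 of 49315 genes, and all 36 had enough counts to be tested among 14714 genes. The samples are gastrocnemius muscles of 10 male mice on a C57BL6J background, 5 AHRfl (AHR-floxed, with both alleles intact because Cre is lacking) and 5 AHRmko (the same floxed alleles with AHR deleted in muscle). In AHRmko mice the MerCreMer recombinase is driven by the human ACTA1 promoter and acts in myofibres after tamoxifen, so other cells of the muscle keep AHR. The protocol attached to all 10 mice names tamoxifen for AHRmko mice and does not say whether AHRfl mice received it. The paper's results describe the AHRfl mice as littermates, and date the start of smoke in both genotypes from tamoxifen delivery. All 10 mice breathed cigarette smoke for 16 weeks. There were 2 sessions of 1 h per day on 5 days per week, at 220 ± 80 mg/m3. Per the labels, muscles were taken 72 h after the last session, which is the upper end of the range in the paper's results. Neither the labels nor the study's methods give the age of these mice, which the paper's results call aged. No air-exposed muscle is among the 10, so each comparison is between genotypes or between mice after smoke.

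Glycolysis splits glucose phosphate into pyruvate in the cytosol, and in muscle most of that glucose phosphate can come from stored glycogen. Fast glycolytic fibres, which make up most of the mouse gastrocnemius, carry a high capacity for glycogen breakdown and lactate production, whereas slow oxidative fibres take up lactate and burn it. Many steps have a muscle isoform and a form used by other tissues, so the choice of isoform marks the cell type as well as the pathway.

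Total counts were between 30393035 and 37954388 per mouse. *Ahr* was at 0.927 to 3.13 CPM (counts scaled to a common library size) over the 10 mice and overlapped between genotypes, which says little about the deletion because counts are summed over all exons. *Esr1*, part of whose sequence the MerCreMer transgene carries, was at 15.9 to 18.98 CPM in AHRfl and 268 to 678 CPM in AHRmko mice, so each library fitted its label. Fast-fibre genes, 8 of which summed to between 118655 and 165794 CPM, marked the samples as fast skeletal muscle but do not single out the gastrocnemius. The slow-fibre genes varied far more, from 94.8 to 2395 CPM for the sum of 8. The markers of other cells were low, with sums of at most 240.5 CPM for 6 endothelial, 109 CPM for 6 Schwann cell, 482 CPM for 5 erythroid, 217 CPM for 6 adipocyte, 52.2 CPM for 8 macrophage and 590 CPM for 6 fibroblast genes. In bulk muscle, fewer fibres of a type and less RNA per fibre cannot be told apart.

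The members took between 6.62% and 8.05% of all counts in a mouse, 7.50% ± 0.366 (SD, n = 5) in AHRfl and 7.57% ± 0.558 (SD, n = 5) in AHRmko. The 5 most counted members were *Aldoa*, *Pygm*, *Gapdh*, *Eno3* and *Pfkm*, which held 68.8% to 70.7% of the members' counts. *Aldoa*, which encodes the aldolase that splits fructose bisphosphate into trioses, alone took 1.91% to 2.48% of all counts. The lowest share was that of AHRmko mouse 8, and the highest that of AHRfl mouse 12. Between these 2 mice the groups overlapped.

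Levels of different genes are compared below as CPM per kb of exon, averaged over the 10 mice. The length is that of all annotated exons joined, which understates genes with seldom-used exons. In the trunk of the pathway *Aldoa* stood highest at 7709 CPM per kb, followed by *Eno3*, the muscle enolase, at 3763. *Pygm*, muscle glycogen phosphorylase, came next at 3210. *Pgam2*, muscle phosphoglycerate mutase, was at 2456 and *Gapdh*, the triose dehydrogenase, at 2080. *Pfkm*, the muscle subunit of phosphofructokinase, the main control step of the pathway, was at 1448. *Ldha*, *Pkm* (pyruvate kinase) and *Tpi1* (triose phosphate isomerase) lay together at 968, 955 and 947 CPM per kb and did not differ from each other beyond their spread over mice. *Pgk1*, phosphoglycerate kinase, was lower at 403 CPM per kb.

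At the entry to the pathway, *Slc2a4*, the insulin-responsive glucose transporter GLUT4, was at 157 CPM per kb, *Hk2*, the main hexokinase of muscle, at 70.8, and *Gpi1*, glucose phosphate isomerase, at 173. *Slc2a4* was the steadiest member, its highest mouse being 1.14 times its lowest. *Pfkfb3*, which makes the fructose bisphosphate that activates phosphofructokinase, was at 42.3 CPM per kb, and *Pfkfb1*, another enzyme of that kind, at 9.90. *Fbp2*, the muscle fructose bisphosphatase that works against phosphofructokinase, was at 24.2. Of the side exits, *Gpd1*, which makes glycerol phosphate, was at 231 CPM per kb, and *Slc16a3*, the lactate exporter MCT4, at 93.2. In the glycogen branch, *Pgm1* (phosphoglucomutase) was at 516, *Ugp2* (which makes UDP-glucose) at 265, *Gyg* (the glycogenin primer) at 158, *Gys1* (glycogen synthase) at 99.9 and *Gbe1* (the branching enzyme) at 11.8 CPM per kb. The phosphorylase kinase subunits *Phka1*, *Phkg1* and *Phkb*, which together switch glycogen phosphorylase on, were at 133, 103 and 69.8.

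**Figure D1:**
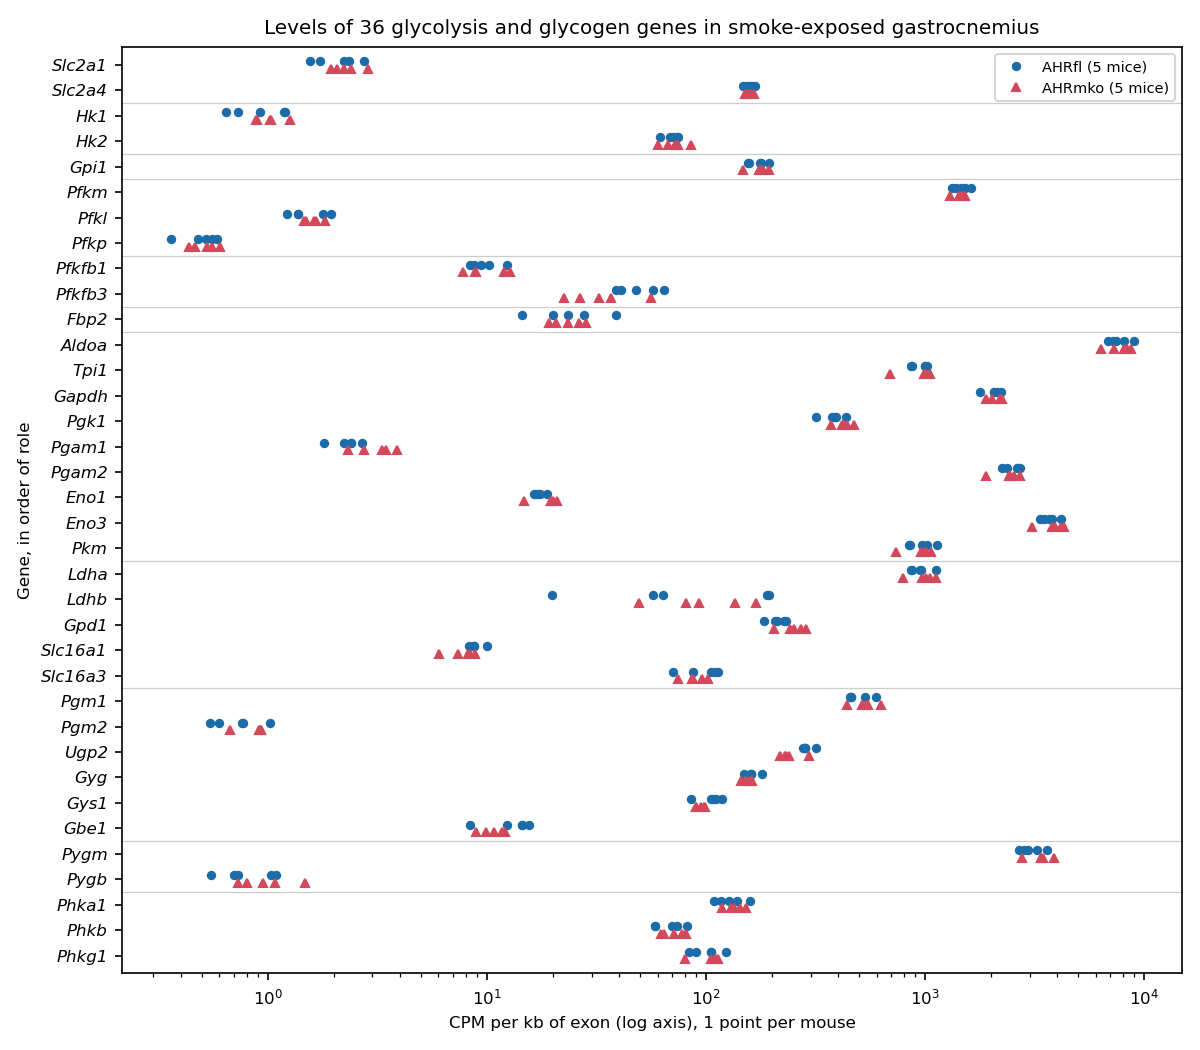
Level of each member in each mouse as CPM per kb of exon on a log axis, blue circles for 5 AHRfl and red triangles for 5 AHRmko mice, with grey lines between roles. The averages over 10 mice run from 0.509 CPM per kb for *Pfkp* to 7709 for *Aldoa*, and *Ldhb* is the member whose mice lie farthest apart.

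Of 10 ratios formed between members, 8 set the main muscle form of a step against another form, and in these the muscle form was the higher in every mouse. Per kb of exon, *Pygm* was 3607 times *Pygb*, the brain phosphorylase, and *Pfkm* 2861 times *Pfkp*, the platelet phosphofructokinase. *Pgam2* was 916 times *Pgam1*, and *Eno3* 208 times *Eno1*, the general enolase. *Hk2* was 73.5 times *Hk1*, the hexokinase of most tissues, and *Slc2a4* 72.3 times *Slc2a1*, the transporter of endothelium, nerve sheath and red cells. *Ldha*, whose subunit favours lactate production, was 11.2 times *Ldhb*, whose subunit favours lactate use. *Slc16a3* was 11.2 times *Slc16a1*, the transporter MCT1 that serves uptake. *Pfkl*, the liver phosphofructokinase subunit, was at 1.57 CPM per kb and *Pgm2*, the lesser phosphoglucomutase, at 0.807. *Pfkfb1* was 0.243 times *Pfkfb3*, with a range of 0.146 to 0.528 over mice, so it was the lower of that pair in every mouse. These folds are averages on the log2 scale over 10 mice. The levels of the lesser forms were 105 CPM per kb for *Ldhb*, 18.1 for *Eno1*, 8.31 for *Slc16a1*, 2.73 for *Pgam1*, 2.21 for *Slc2a1*, 0.978 for *Hk1*, 0.914 for *Pygb* and 0.509 for *Pfkp*.

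The *Ldha* to *Ldhb* ratio was the most variable of the 10 ratios formed. By mouse it was 16.5, 56.1, 15.1, 4.51 and 4.54 in AHRfl mice 11, 12, 13, 15 and 33 and 4.68, 11.9, 12.02, 7.44 and 21.3 in AHRmko mice 8, 9, 19, 22 and 34. It was thus highest in AHRfl mouse 12 and lowest, at nearly equal values, in AHRfl mice 15 and 33 and AHRmko mouse 8. The *Eno3* to *Eno1* ratio, in contrast, ran only from 184 to 249.

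None of the 10 ratios passed 0.05 between genotypes after adjustment over the 10 (two-sided exact permutation tests over mice, lowest adjusted p = 0.397). The smallest p such a test can give is 0.00794, so a single ratio with fully separated genotypes could not have passed. The adjusted test therefore cannot decide whether 1 ratio alone differed. In every ratio the mice of the genotypes overlapped. The lowest unadjusted p was that of *Pgam2* over *Pgam1*, which by mouse was 1087, 1459, 1118, 1062 and 827 in AHRfl mice 11, 12, 13, 15 and 33 and 569, 1039, 697, 733 and 884 in AHRmko mice 8, 9, 19, 22 and 34. AHRmko mice were the lower by 0.51 on the log2 scale (two-sided exact permutation test, p = 0.0397, adjusted p = 0.397). All 5 AHRmko mice lay below 4 of the 5 AHRfl mice, and AHRfl mouse 33 lay among them. The *Pygm* to *Gys1* ratio, which sets glycogen breakdown against synthesis, was by mouse 24.9, 41.99, 29.2, 26.3 and 25.5 in AHRfl mice 11, 12, 13, 15 and 33 and 30.5, 36.3, 34.8, 34.1 and 42.9 in AHRmko mice 8, 9, 19, 22 and 34. All 5 AHRmko mice lay above 4 of the 5 AHRfl mice, and AHRfl mouse 12 lay among them. The mean log2 value of this ratio was 4.86 ± 0.311 (SD, n = 5) in AHRfl and 5.15 ± 0.178 (SD, n = 5) in AHRmko mice. The difference was 0.29 (two-sided exact permutation test, p = 0.111, adjusted p = 0.556).

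No member differed between AHRmko and AHRfl muscle by edgeR's quasi-likelihood test at an adjusted p under 0.05. An adjusted p under 0.05 was found for 0.00680% of all genes tested, which is 1 gene. Of the members, 3 had an unadjusted p under 0.05 by that test, 2 higher and 1 lower in AHRmko, against 6.61% of all genes (3.23% higher and 3.38% lower). The DESeq2 Wald test, which the study's methods name, also called 0 of the 36. It called 0.193% of the 10858 genes to which it gave an adjusted p. By that test 3 members had an unadjusted p under 0.05, beside 993 of the 14714 genes tested. No member had 5 AHRmko mice all above or all below the 5 AHRfl mice, where 1.40% of all genes did. The median log2 fold change of the members was 0.04, with 24 above and 12 below 0, beside 0.0056 over all genes tested. The fold changes ran from -0.51 for *Pfkfb3* to 0.45 for *Pgam1*.

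The limits on a genotype difference were narrow for the most abundant enzymes. The 95% interval of the log2 fold change was -0.23 to 0.24 for *Aldoa*, -0.24 to 0.24 for *Tpi1*, -0.13 to 0.23 for *Gapdh* and -0.19 to 0.15 for *Pfkm*. It was -0.15 to 0.27 for *Eno3*, -0.26 to 0.22 for *Pkm* and -0.17 to 0.27 for *Ldha*. The steadiest member, *Slc2a4*, had an interval of -0.14 to 0.13, and *Hk2* one of -0.15 to 0.24. *Ldhb*, at -1.43 to 1.45, was the least well bounded.

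**Figure D2:**
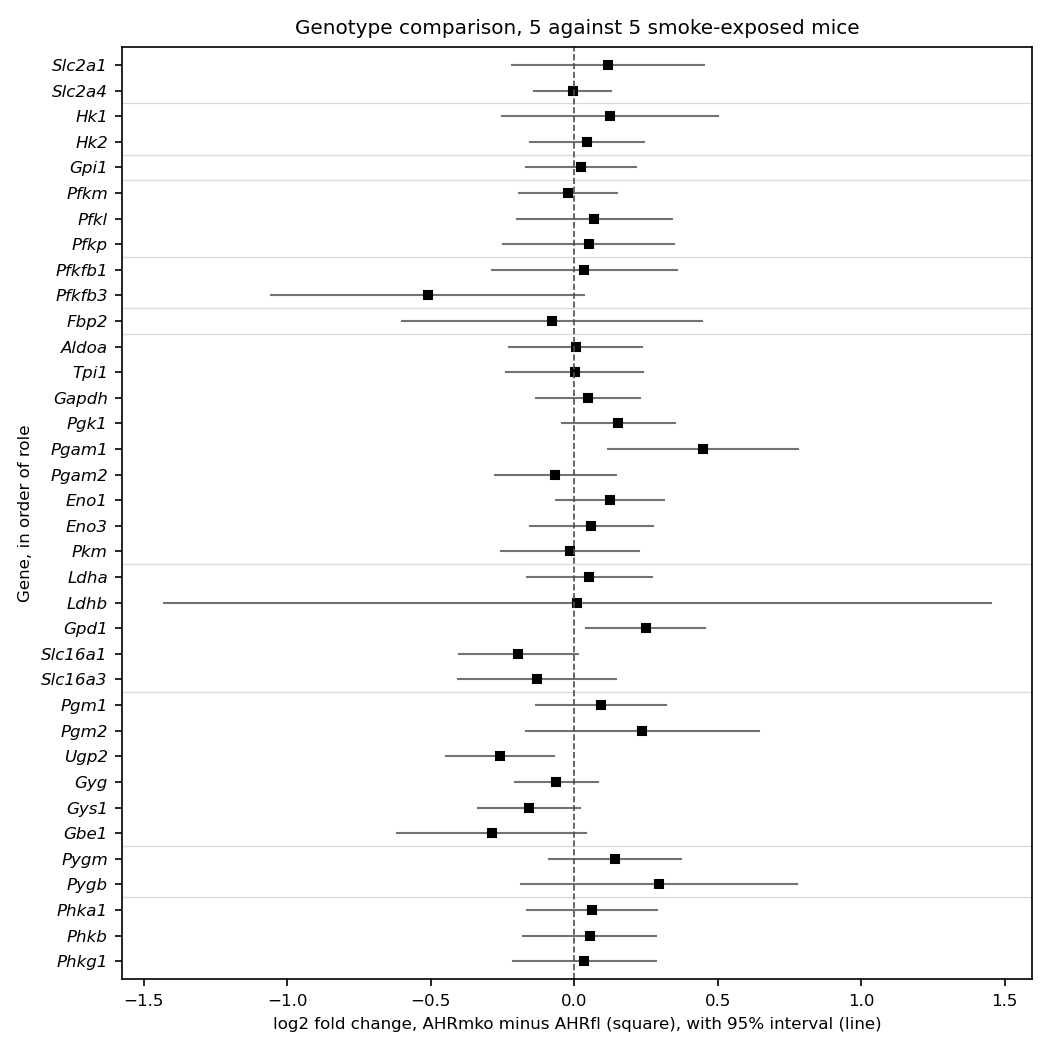
Log2 fold change of each member between 5 AHRmko and 5 AHRfl mice (squares) with its 95% interval from edgeR's quasi-likelihood fit (lines). The intervals of *Pgam1* and *Gpd1* lie above 0 and that of *Ugp2* below 0 before adjustment, and the interval of *Ldhb* is the widest.

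The 8 members with the smallest unadjusted p in this comparison are given mouse by mouse, with AHRfl mice in the order 11, 12, 13, 15 and 33 and AHRmko mice in the order 8, 9, 19, 22 and 34.

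*Ugp2* (ENSMUSG00000001891, chr11:21321138-21371201 of GRCm38 on the minus strand) makes UDP-glucose, the glucose donor of glycogen synthesis. It was at 978, 869.9, 871, 851 and 867 CPM in AHRfl and 729.6, 707, 903, 663 and 705 CPM in AHRmko mice. In AHRmko, 4 mice lay below every AHRfl mouse, and AHRmko mouse 19 lay above all AHRfl mice but mouse 11. The difference on the log2 scale was -0.26 (standard error 0.0866, 95% interval -0.45 to -0.07), with an unadjusted p of 0.0103 and an adjusted p of 0.665 in the edgeR fit (two-sided exact permutation test, p = 0.0397).

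*Gys1*, which adds that glucose to the growing chain, was at 564, 410.3, 529.6, 515 and 502 CPM in AHRfl and 433, 456, 467, 475 and 431 CPM in AHRmko mice. AHRmko mice lay below 4 of the 5 AHRfl mice, and AHRfl mouse 12 lay below all of them. *Gbe1*, which adds the branches, was at 77.04, 44.7, 65.9, 82.98 and 77.7 CPM in AHRfl and 64.5, 57.8, 53.02, 62.5 and 47.6 CPM in AHRmko mice. Here too AHRfl mouse 12 was the lowest of its group and below every AHRmko mouse, while the other 4 AHRfl mice lay above all AHRmko mice. The log2 fold changes were -0.16 (standard error 0.0823) for *Gys1* and -0.29 (standard error 0.151) for *Gbe1*, with adjusted p of 0.791 and 0.792 in the edgeR fit. Over fits that omit 1 mouse, the fold change of *Gys1* ran from -0.22 without AHRfl mouse 12 to -0.11 without AHRfl mouse 11, and that of *Gbe1* from -0.41 without AHRfl mouse 12 to -0.22 without AHRfl mouse 15. Of the 6 members that lead from glucose phosphate to branched glycogen, 4 had a log2 fold change below 0 and 2 above 0, with a median of -0.11, and 0 passed.

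*Pfkfb3* was at 484, 432, 360.3, 295 and 309 CPM in AHRfl and 246, 425, 170.4, 200.5 and 277 CPM in AHRmko mice. In AHRmko, 4 mice lay below every AHRfl mouse and AHRmko mouse 9 lay near the top of the AHRfl range. Its log2 fold change of -0.51 was the largest of any member by size, but its standard error was 0.245 and its adjusted p 0.774 in edgeR's quasi-likelihood test (two-sided exact permutation test, p = 0.0635). Omitting 1 mouse at a time gave values from -0.75 without AHRmko mouse 9 to -0.38 without AHRmko mouse 19, and it was -0.39 with the slow-fibre score described below as a covariate. The partner enzyme *Pfkfb1* was at 39.3 ± 6.28 CPM (SD, n = 5) in AHRfl and 40.3 ± 8.67 CPM (SD, n = 5) in AHRmko mice, a difference within the spread.

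*Pgam1*, the general phosphoglycerate mutase, was at 4.75, 3.58, 4.77, 4.41 and 5.35 CPM in AHRfl and 6.59, 4.58, 7.71, 6.86 and 5.44 CPM in AHRmko mice, or between 124 and 270 counts. In AHRmko, 4 of 5 mice lay above every AHRfl mouse, and AHRmko mouse 9 lay within the AHRfl range. The difference on the log2 scale was 0.45 (standard error 0.153, 95% interval 0.12 to 0.78, edgeR adjusted p = 0.665). Of its stretches of 100 nt, 33.9% also occur in the annotated copies *Pgam1-ps1* and *Pgam1-ps2*, so that reads from them may not be assigned to 1 gene. The muscle form *Pgam2*, which is the main form for this step here, was at 2110 ± 166 CPM (SD, n = 5) in AHRfl and 2016 ± 257 CPM (SD, n = 5) in AHRmko mice.

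*Pgk1* was at 878, 979, 869, 839 and 711 CPM in AHRfl and 829.7, 941, 1059, 990.1 and 937 CPM in AHRmko mice. The groups overlapped widely, and the difference on the log2 scale was 0.15 (standard error 0.0912, edgeR adjusted p = 0.815). Without AHRfl mouse 33 it was 0.09. *Pgk1* also shares 51.7% of its stretches of 100 nt with annotated copies.

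*Gpd1* was at 611, 671, 683, 623 and 543 CPM in AHRfl and 603, 804, 749, 716 and 849 CPM in AHRmko mice. In AHRmko, 4 mice lay above every AHRfl mouse, and AHRmko mouse 8 lay above AHRfl mouse 33 alone. The difference on the log2 scale was 0.25 (standard error 0.0960, 95% interval 0.04 to 0.46), with an adjusted p of 0.668 in edgeR's quasi-likelihood test. *Gpd1* is also a gene of fat cells, and the summed adipocyte markers were 120 to 201 CPM in AHRfl and 103 to 217 CPM in AHRmko mice. Most of that sum was *Fabp4*, with a log2 fold change of -0.017. The fold changes of *Adipoq*, *Cidec*, *Plin1* and *Cfd* were 0.50, 0.45, 0.33 and 0.17, with edgeR adjusted p from 0.934 to 0.982. A part of fat cells in the *Gpd1* difference was not tested. *Slc16a1* was at 38.7, 38.6, 44.3, 36.5 and 38.3 CPM in AHRfl and 36.9, 26.6, 39.2, 32.8 and 36.2 CPM in AHRmko mice. AHRmko mouse 9 was the lowest of all, and the log2 fold change was -0.20 (standard error 0.0960, edgeR adjusted p = 0.774). It was -0.12 without AHRmko mouse 9.

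**Figure D3:**
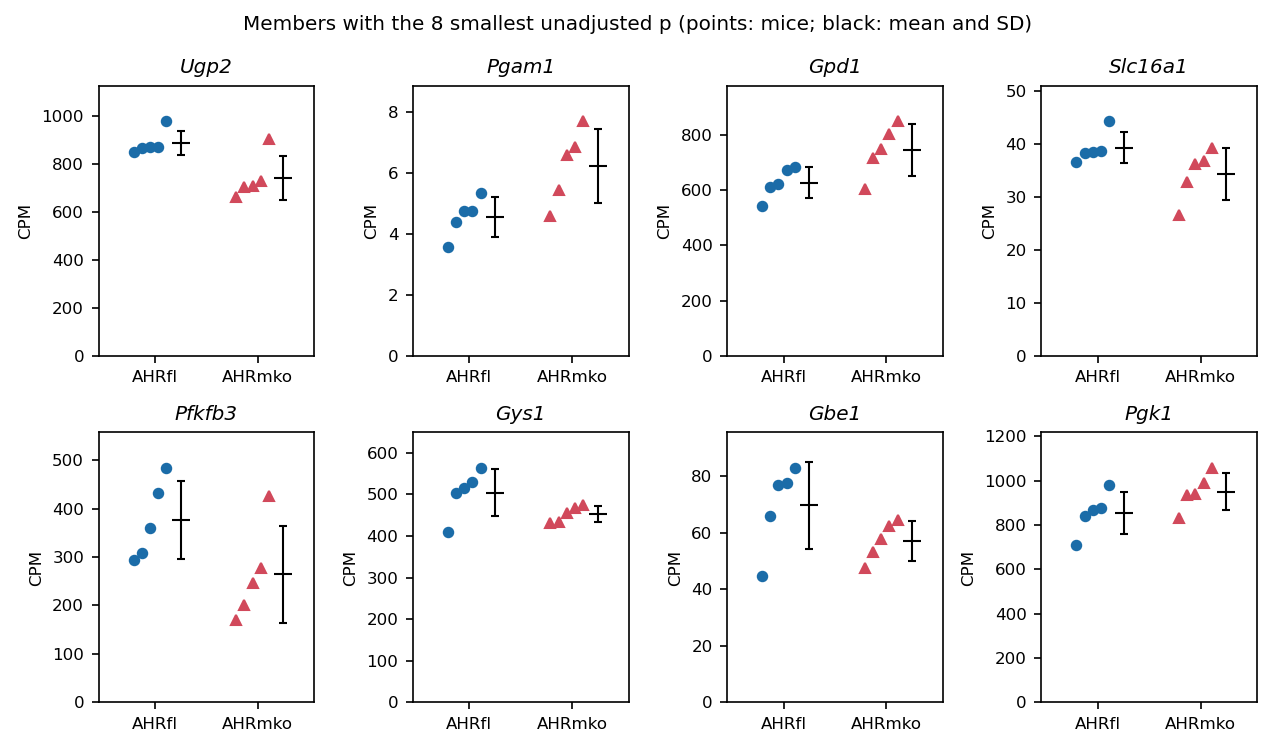
CPM of the 8 members with the smallest unadjusted p, 1 point for each of 5 AHRfl (blue circles) and 5 AHRmko (red triangles) mice, with the mean and SD in black beside them. In every panel the points of the 2 genotypes overlap, and in *Ugp2* a single AHRmko mouse, at 903 CPM, lies inside the AHRfl range.

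Of the other 28 members, 21 had a log2 fold change above 0 and 7 below 0, between -0.13 for *Slc16a3* and 0.30 for *Pygb*, with 0 at an unadjusted p under 0.05 by edgeR. *Pygm* was at 9823 ± 1177 CPM (SD, n = 5) in AHRfl and 10839.8 ± 1274 CPM (SD, n = 5) in AHRmko mice, with a log2 fold change of 0.14 (95% interval -0.09 to 0.37). *Pygb* had between 94 and 270 counts, and the interval of its log2 fold change was -0.18 to 0.78. The phosphorylase kinase subunits differed between genotypes by 0.06 for *Phka1*, 0.04 for *Phkg1* and 0.05 for *Phkb* on the log2 scale, within the spread between mice.

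The members also varied from mouse to mouse, with a median SD over the 10 mice of 0.18 on the log2 scale beside 0.21 over all genes tested. Ordered by rising content of slow-fibre RNA, the mice were AHRfl 12, AHRmko 9, AHRfl 13, AHRfl 11, AHRmko 34, AHRmko 19, AHRfl 33, AHRmko 22, AHRfl 15 and AHRmko 8. This order rests on a score, the mean log2 CPM of *Myh7*, *Tnnt1*, *Tnni1*, *Tnnc1*, *Myl2*, *Myl3*, *Atp2a2* and *Tpm3*, which are genes of slow fibres and include no member. The score ran from 2.42 to 7.79 in AHRfl and from 3.84 to 7.97 in AHRmko mice. *Myh7* itself ran from 3.32 CPM in AHRfl mouse 12 to 631 CPM in AHRmko mouse 8. Per the paper's methods, the red part of the gastrocnemius was cut out for fibre bundles and the rest frozen or used for mitochondria. Whether the sequenced pieces were such remainders is not stated, and a part of the dissection in this range was not tested. Relative to each member's mean over the 10 mice, the median member was highest in AHRfl mouse 12, by 0.11 on the log2 scale, and lowest in AHRmko mouse 8, at -0.15. The 2 mice at the ends of the score were thus also the ends for the members. They were the ends for the mitochondrial share of counts too, lowest in AHRfl mouse 12 (7.34%) and highest in AHRmko mouse 8 (11.5%). The part of that share was not tested. AHRmko mouse 22 had a high score of 7.54 and a median member at 0.06, with 25 of 36 members above their means.

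**Figure D4:**
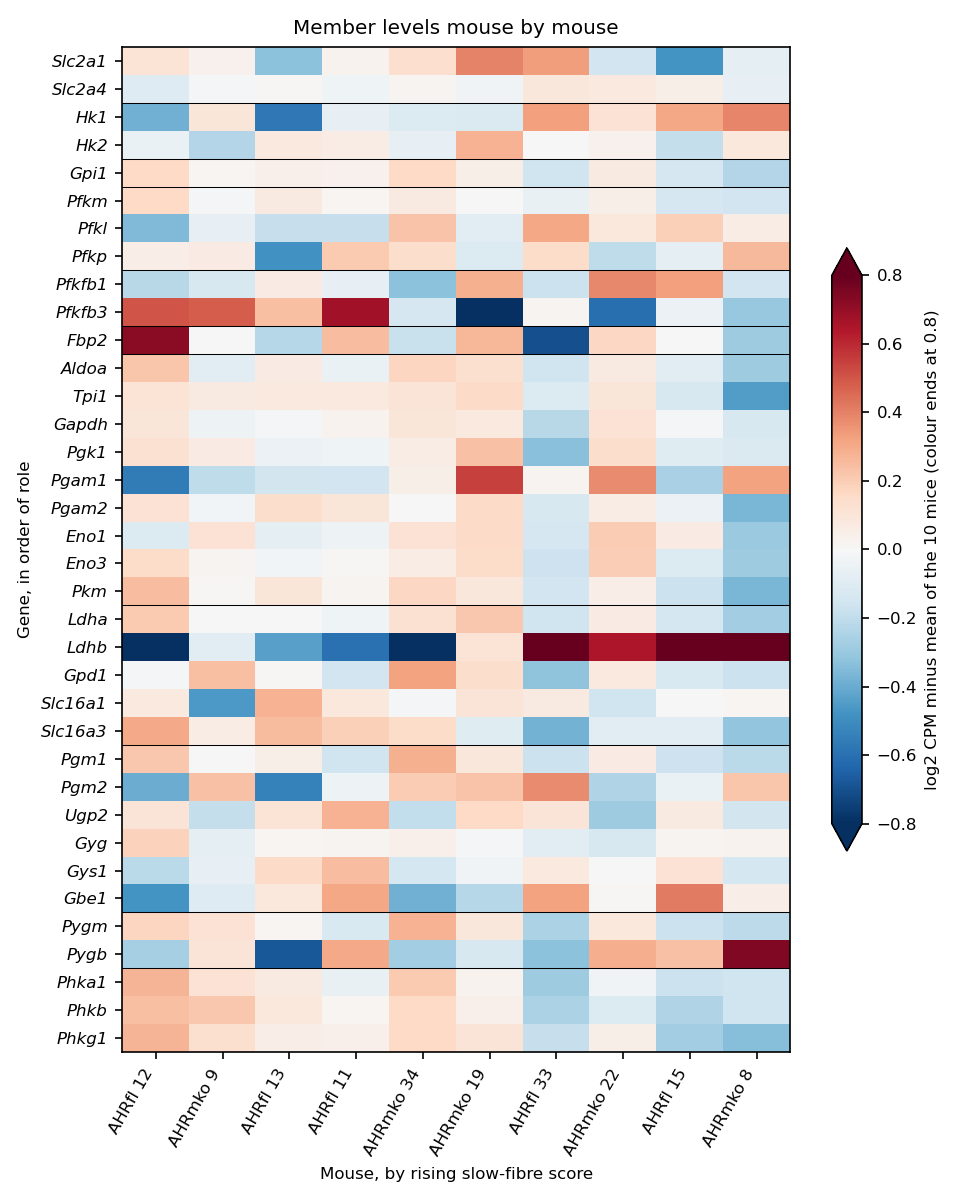
Log2 CPM of each member minus its mean over the 10 mice, with mice from left to right by rising slow-fibre score and colour ending at 0.8 to either side. *Ldhb* turns from below to above its mean along the axis, and the columns of AHRfl mouse 12 and AHRmko mouse 8 are the most unlike.

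Each gene was then tested for a slope on the score in a model that also held genotype. Of the 36 members, 5 passed an adjusted p of 0.05 by edgeR's quasi-likelihood method, against 3.53% of all genes tested. *Ldhb* rose with the score, in a direction that 2.13% of all genes took, and *Phkb*, *Phkg1*, *Phka1* and *Slc16a3* fell with it, as 1.40% of all genes did. At an unadjusted p under 0.05 by the same test, 5 members were higher (10.4% of all genes) and 13 lower (9.88% of all genes) with the score. The median slope of the members was -0.035 on the log2 scale per unit of score, with 23 slopes below 0 and 13 above, beside 1.7e-04 over all genes tested. The 3 subunits of muscle phosphorylase kinase among the members were all among the 5.

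In the order of rising score given above, *Ldhb* was at 31.1, 127, 100.1, 89.4, 77.3, 146, 298, 212, 305 and 266 CPM. The 4 mice with the highest scores had the 4 highest levels, and AHRfl mouse 12 the lowest. Its slope was 0.47 on the log2 scale per unit of score (standard error 0.0818, edgeR adjusted p = 0.0275). The annotated copy *Gm5514* holds 6.44% of its stretches of 100 nt.

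*Phkb*, the beta subunit that regulates phosphorylase kinase, was at 608, 598, 545, 521, 574, 529, 431, 477, 435 and 461 CPM in the same order. The levels fell from AHRfl mouse 12 to AHRfl mice 33 and 15, and the 4 mice with the highest scores had the 4 lowest levels. The slope was -0.094 (standard error 0.0138, 95% interval -0.12 to -0.064, edgeR adjusted p = 0.0039). *Phkg1*, the catalytic subunit, was at 799.8, 723, 688, 683, 741, 711, 583, 684, 546 and 523 CPM. Its 3 lowest mice were AHRmko 8, AHRfl 15 and AHRfl 33, while AHRmko mouse 22, of similar score, lay close to AHRfl mice 11 and 13. The slope was -0.092 (standard error 0.0193, edgeR adjusted p = 0.0222). *Phka1*, the muscle form of the other regulatory subunit, was at 996, 895, 866, 793, 956, 841, 678, 811, 732 and 739 CPM. Its lowest mice were AHRfl 33, AHRfl 15 and AHRmko 8. The slope was -0.082 (standard error 0.0174, edgeR adjusted p = 0.0229).

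*Slc16a3* was at 606, 510.0, 585, 559, 542, 458, 377, 462, 461 and 394 CPM in the order of rising score. AHRfl mice 12 and 13 were the highest, and AHRfl mouse 33 and AHRmko mouse 8 the lowest. The slope was -0.10 (standard error 0.0214, edgeR adjusted p = 0.0244). Its counterpart for lactate uptake, *Slc16a1*, had a slope of 0.0084 (95% interval -0.05 to 0.067).

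The members ranked sixth to eighth by this test missed the threshold. *Hk1* was at 6.26, 8.74, 5.50, 7.82, 7.60, 7.56, 10.3, 8.86, 10.1 and 10.7 CPM, with the 2 lowest levels in AHRfl mice 13 and 12 (slope 0.12, edgeR adjusted p = 0.0567). *Gbe1* was at 44.7, 57.8, 65.9, 77.04, 47.6, 53.02, 77.7, 62.5, 82.98 and 64.5 CPM, with the lowest level in AHRfl mouse 12 (slope 0.10, edgeR adjusted p = 0.0714). Without AHRfl mouse 12 that slope was 0.061, and without AHRmko mouse 8 as well it was 0.052. *Pkm* was at 5639, 4776, 5069, 4815, 5316, 5046, 4269.6, 4914, 4217 and 3686 CPM, with the highest level in AHRfl mouse 12 and the lowest in AHRmko mouse 8 (slope -0.073, edgeR adjusted p = 0.0859). Without AHRfl mouse 12 and AHRmko mouse 8 the slope of *Pkm* was -0.04. *Pygm*, with a slope of -0.068 and an adjusted p of 0.0919 in the edgeR fit, was the next. *Slc2a4* (slope 0.018, 95% interval -0.015 to 0.051) and *Hk2* (0.0078, -0.046 to 0.062), which bring glucose into the fibre, had intervals that held 0. *Pfkfb3* had the steepest downward slope of any member, -0.15 (95% interval -0.26 to -0.033), with an edgeR adjusted p = 0.152.

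**Figure D5:**
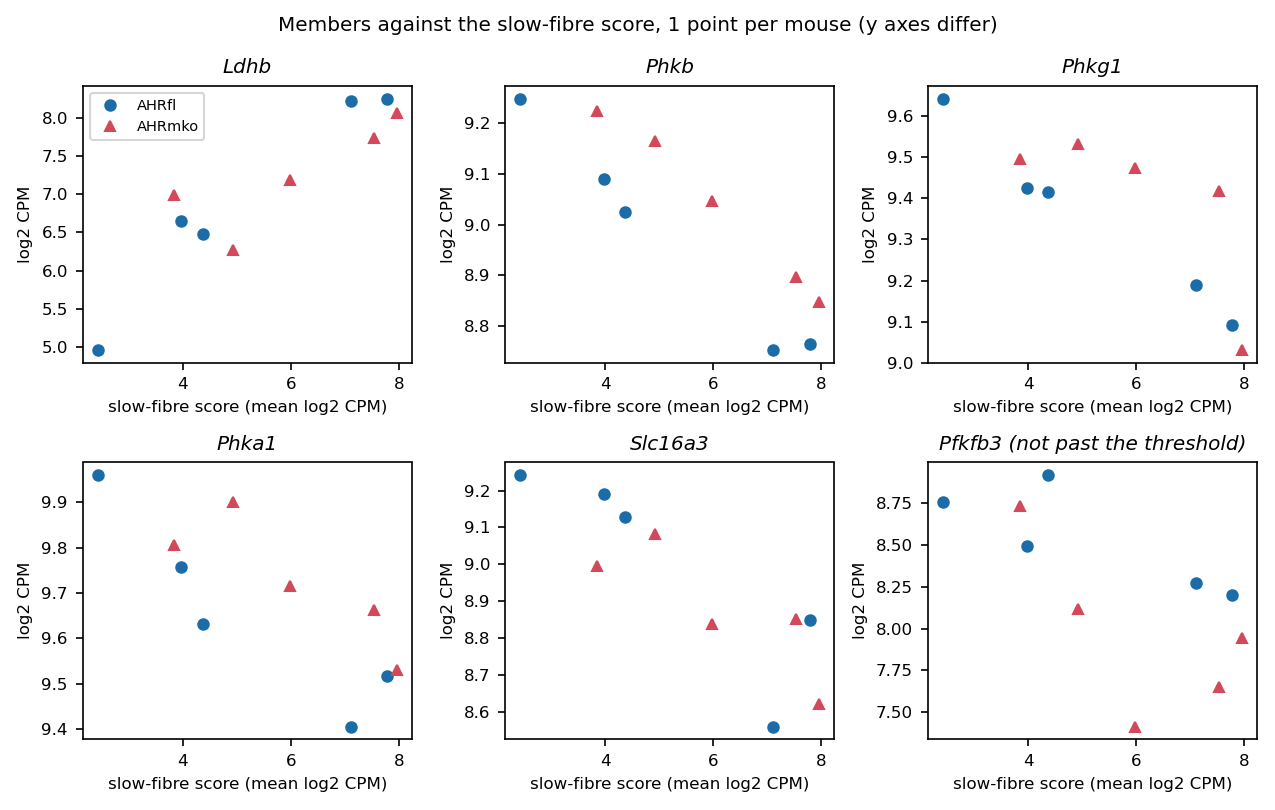
Log2 CPM of 6 members against the slow-fibre score, the mean log2 CPM of 8 slow-fibre genes, 1 point per mouse with AHRfl as blue circles and AHRmko as red triangles. *Ldhb* rises by 0.47 per unit of score, *Phkb*, *Phkg1*, *Phka1* and *Slc16a3* have slopes from -0.10 to -0.082, and *Pfkfb3*, with a slope of -0.15 that did not pass the threshold, is shown for comparison.

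The number of members past the threshold on the score depended on single mice. It was 1 without AHRfl mouse 12, 1 without AHRfl mouse 15, 1 without AHRfl mouse 33, 2 without AHRmko mouse 8 and 10 without AHRmko mouse 9, and 4 or 5 without each of the other 5. The share of all genes that passed moved with it, to 0.997%, 0.884%, 0.861%, 2.12% and 8.68% in those 5 fits from 3.53% with all mice. Slopes of members that no longer passed kept their sign, for example -0.10 for *Slc16a3* without AHRfl mouse 12 and 0.46 for *Ldhb* without AHRfl mouse 15. *Ldhb*, the only member called upward, did not pass in 6 of the 10 fits, those without AHRfl mice 11, 12, 13, 15 or 33 or AHRmko mouse 8, with edgeR adjusted p from 0.0555 to 0.103 and slopes from 0.39 to 0.49. *Phkb* passed in each of these 10 fits, with adjusted p from 0.0028 to 0.0261 in edgeR's quasi-likelihood test. Without AHRfl mouse 12 and AHRmko mouse 8 together, the mice farthest from the median score, 0 members passed and 0.400% of all genes did, with an adjusted p of 0.0639 for *Phkb*, and the 8 slopes kept their signs. All 8 slow-fibre genes rose with the score by construction. Of the 8 fast-fibre genes *Myh4* alone passed, and it fell (edgeR adjusted p = 0.0254), with its highest level, 66541 CPM, in AHRfl mouse 12 and its lowest, 41411 CPM, in AHRfl mouse 33. The slopes of *Myh1* and *Myh2* were 0.23 and 0.40, and those of the other 5 lay below 0. The macrophage marker *Csf1r* and the fibroblast markers *Col1a1* and *Lum* also rose with the score, 1 of 8 and 2 of 6 of their lists, and none of the endothelial, Schwann cell, erythroid or adipocyte markers tested passed. Their part in the result was not tested.

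The sequence before the start sites of the 5 members that passed on the score, and of *Ugp2*, is printed because the former followed the score, *Ldhb* upward and the other 4 downward, and the latter had the smallest p between genotypes. RefSeq promoters of GRCm38.p6 matched 34 of the 36 members, with 49 start sites, and *Slc2a4* and *Gpd1* were not among them. The 250 bases before each start site were searched on both strands for the core of the AHR element (GCGTG), the core of the hypoxia element bound by HIF (ACGTG), the E-box CACGTG, which contains the HIF core, and the MEF2 motif. Each sequence runs 5′ to 3′ on the gene's strand in lower case, with matches to the AHR core, HIF core and MEF2 motif on either strand in capitals.
*Ldhb* (chr6:142507958-142508207, minus strand): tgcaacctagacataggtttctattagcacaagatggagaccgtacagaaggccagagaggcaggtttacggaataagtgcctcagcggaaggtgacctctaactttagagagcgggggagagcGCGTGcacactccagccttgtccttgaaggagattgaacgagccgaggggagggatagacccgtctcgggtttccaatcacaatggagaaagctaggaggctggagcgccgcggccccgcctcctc
*Phkb* (chr8:85840738-85840987, plus strand): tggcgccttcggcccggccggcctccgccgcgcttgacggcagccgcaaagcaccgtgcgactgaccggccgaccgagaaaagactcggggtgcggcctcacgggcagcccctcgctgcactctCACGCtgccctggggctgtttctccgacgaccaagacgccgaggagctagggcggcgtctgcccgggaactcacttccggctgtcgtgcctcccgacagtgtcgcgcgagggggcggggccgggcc
*Phkg1* (chr5:129879089-129879338, minus strand): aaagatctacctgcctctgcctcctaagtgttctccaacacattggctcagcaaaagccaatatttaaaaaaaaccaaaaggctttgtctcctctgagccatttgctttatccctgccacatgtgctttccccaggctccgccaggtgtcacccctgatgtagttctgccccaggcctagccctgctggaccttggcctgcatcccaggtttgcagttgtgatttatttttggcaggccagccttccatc
*Phka1* (chrX:102644247-102644496, minus strand): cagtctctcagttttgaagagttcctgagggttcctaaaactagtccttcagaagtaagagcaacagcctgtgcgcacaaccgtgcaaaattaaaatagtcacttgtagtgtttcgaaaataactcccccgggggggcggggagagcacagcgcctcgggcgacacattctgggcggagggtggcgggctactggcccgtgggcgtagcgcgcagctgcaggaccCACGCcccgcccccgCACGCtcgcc
*Slc16a3* (chr11:120948817-120949066, plus strand): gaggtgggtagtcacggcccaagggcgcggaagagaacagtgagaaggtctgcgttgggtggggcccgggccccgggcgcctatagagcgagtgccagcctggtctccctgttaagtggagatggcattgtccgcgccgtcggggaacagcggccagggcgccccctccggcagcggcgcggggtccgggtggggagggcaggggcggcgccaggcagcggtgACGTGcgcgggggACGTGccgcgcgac
*Ugp2* (chr11:21371268-21371517, minus strand): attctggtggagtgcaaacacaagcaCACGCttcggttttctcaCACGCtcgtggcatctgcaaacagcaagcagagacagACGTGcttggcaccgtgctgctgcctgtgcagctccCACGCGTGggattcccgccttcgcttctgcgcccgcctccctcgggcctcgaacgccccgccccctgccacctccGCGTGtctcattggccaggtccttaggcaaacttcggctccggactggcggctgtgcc

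The AHR core lay in this window for 20 of 34 members, or 58.8%, beside 30.9% of all 27025 genes with a promoter. Members had more start sites per gene, and counted by window the AHR core lay in 23 of 49 (beside 28.2% of all 32851 windows) and the HIF core in 20 of 49 (beside 16.6%). The HIF core lay there for 17 of 34 members (50% beside 18.5%), the E-box for 5 (14.7% beside 6.86%) and the MEF2 motif for 2, *Pgam2* and *Pfkfb1* (5.88% beside 1.99%). The window of *Ugp2* printed here held the AHR core 5 times, the most of any member, while the window of its other start site held none. *Phka1* held it 2 times, *Phkb* and *Ldhb* 1 time each, and *Phkg1* held none of the 4 motifs. *Slc16a3* held the HIF core 2 times and the AHR core 0 times. Both cores contain a CpG, of which the window of *Slc16a3* held 29, that of *Phkb* 34 and that of *Phkg1* 1. A match is a description of letters and shows no binding.

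Other genes of the pathway, 60 regulators, tissue forms and glycogen-bound proteins outside the members, are given for comparison. Of these, 52 were tested and 0 had an adjusted p under 0.05 by edgeR's quasi-likelihood test or by DESeq2. At an unadjusted p under 0.05 there were 3 by each, beside 6.61% of all genes in edgeR and 993 of 14714 in DESeq2. The 3 smallest p were those of *Tbc1d4*, *Eno2* and *Pfkfb2*. *Tbc1d4*, which holds GLUT4 back until insulin signals, was at 37.4 ± 5.36 CPM (SD, n = 5) in AHRfl and 45.3 ± 4.59 CPM (SD, n = 5) in AHRmko mice (log2 fold change 0.28, edgeR adjusted p = 0.665). *Eno2*, the neuronal enolase, was at 1.11 ± 0.303 CPM (SD, n = 5) in AHRfl and 0.710 ± 0.120 CPM (SD, n = 5) in AHRmko mice (log2 fold change -0.64, edgeR adjusted p = 0.665). *Pfkfb2* was at 7.35 ± 1.01 CPM (SD, n = 5) in AHRfl and 9.28 ± 1.82 CPM (SD, n = 5) in AHRmko mice (log2 fold change 0.34, edgeR adjusted p = 0.711).

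On the slow-fibre score, 4 of the 52 passed in edgeR's quasi-likelihood test, and all 4 fell, beside 1.40% of all genes that fell and 3.53% that passed in either direction. Among them were *Akt2*, the insulin-signalling kinase (slope -0.059, edgeR adjusted p = 0.0488), *Gpd2*, the mitochondrial partner of *Gpd1* (slope -0.071, edgeR adjusted p = 0.0468), and *Slc2a3*, a glucose transporter (slope -0.14, edgeR adjusted p = 0.0357). *Phka2* and *Phkg2*, the liver forms of the phosphorylase kinase subunits, were low, at 6.29 and 5.50 CPM over the 10 mice. Their slopes of 0.0069 and 0.031 did not pass.

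Some members cannot be counted free of their copies or neighbours. Besides *Pgk1* and *Pgam1*, stretches of 100 nt were shared with other genes of the table for 20.9% of *Gapdh*, 20.4% of *Eno1* and 12.2% of *Pkm*. Exons of other genes overlapped 15.3% of the exon length of *Pkm*, 13.6% of *Pgm1*, 13% of *Gpd1* and 11.5% of *Gpi1*. The supplement states that strand was used in counting if the library preparation was strand-specific, but not whether it was. Reads of such parts may be lost or not be told apart from those of the neighbour, which was not tested.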

How the data were processed

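RNA was sequenced from the gastrocnemius of 10 mice, and the authors deposited raw read counts per Ensembl gene after trimming with Trimmomatic 0.36 and alignment with STAR 2.5.2b to GRCm38, per the study's methods and processing notes. The Ensembl release is not given in the sources used here. The supplement states that only unique reads within exons were counted, by strand if the library preparation was strand-specific. It does not say whether the preparation was. Gene names came from GENCODE for 49056 of 49315 IDs. Genes were kept by edgeR's filterByExpr (minimum count 10, minimum total 15), scaled by TMM and tested by quasi-likelihood (edgeR 4.0.16, R 4.3.3), with p-values adjusted by Benjamini-Hochberg over all 14714 genes at a threshold of 0.05. CPM values use the TMM-scaled library sizes, log2 CPM a prior count of 2, and isoform ratios a pseudocount of 0.5. The score slope came from a model with genotype and score. Exact permutation tests were two-sided over 252 assignments of mice to genotypes, with a smallest possible p of 0.00794. DESeq2 1.42.0, other scalings, no filter, other scores and leaving out each mouse were alternatives. Total counts of 30393035 to 37954388 put the floor of 3 counts at 0.079 to 0.0987 CPM, for counting error only. The scripts were tested on simulated data. There, 27 of 67 genotype changes of 0.5 on the log2 scale were called, and 55 of 67 changes of 1. Slopes of 0.1 per unit of score were called in 11 of 67 genes, and slopes of 0.25 in 51 of 67. The members and lists were chosen with earlier results of these data known. Mouse-by-mouse values are given for members past a threshold and for the 8 smallest p of each test, and the other pathway genes are named where past the threshold or among the 3 smallest p. A gene of that list is not reported here. Each mouse is 1 replicate.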

Additional observations from a re-analysis of the deposited data

Results flagged for a closer look

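Within a genotype of 5 mice, a mouse stood apart from the other 4 by Dixon's criterion for 5 of 94 combinations of a quantity and a genotype, where chance alone gives about 4.7. The quantities were the 36 members, the 10 isoform ratios and the members' share of counts, and all 5 flags fell on members. The values are the gap to the nearest mouse as a share of the group's range, and the critical value is 0.71. AHRmko mouse 8 was low for *Tpi1* (0.863), *Eno1* (0.817) and *Phkg1* (0.773). Its *Tpi1* level was 1896 CPM beside 2719 CPM in the next mouse. AHRmko mouse 22 was low for *Pgm2* (0.934), at 1.74 CPM beside 2.36 CPM. AHRfl mouse 11 was high for *Ugp2* (0.836), at 978 CPM beside 871 CPM, and without it the log2 fold change of *Ugp2* was -0.22 in place of -0.26.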

How the results depend on the processing

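No member was called between genotypes under any alternative run, and the median log2 fold change of the members stayed between 0.02 and 0.06 over settings and between 0.0018 and 0.07 with each mouse left out. No fold change of the 8 members with the smallest p reversed under these alternatives, and no slope of the corresponding 8 reversed under those that kept the score and the model. The number of members past the threshold on the slow-fibre score, 5, became 13 with no filter on low counts (2.69% of all genes passing, against 3.53%), 1 with *Myh7* alone as the score (0.890%), and 0 with AHRfl mouse 12 and AHRmko mouse 8, the farthest from the median score, both left out. With each mouse left out it ran from 1 to 10. The cause was not tested, beyond fewer mice in the latter fits. With the score alone in the model 5 members passed, 4 of them shared, with *Hk1* in place of *Phka1*. No paired analysis was possible because the animal numbers are not shared between the genotypes. *Pgm2* had the fewest counts of the members, 50 to 91 per mouse, and the 95% interval of its log2 fold change was -0.17 to 0.64.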
